A study of Mus musculus with 9 samples.

Results

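The long non-coding RNAs (lncRNAs) of adult mouse liver described here are 97 genes of 9885 that the GENCODE vM21 annotation places in 5 long non-coding types. They were chosen by level, as the genes of these types with a mean FPKM (fragments per kilobase of transcript, scaled to the mapped fragments of the library) of at least 2 over all 9 livers. Of the 9885 genes, 3363 were above 0 in at least 1 liver and 100 passed the threshold. Of these 100, 3 (AY036118, Hectd2os and Meg3) were left out by name, and 8 further genes named in the same rule were not among them. The 97 lncRNAs were 39 of 5621 lincRNAs (genes between other genes), 28 of 788 processed transcripts, 27 of 2959 antisense genes, 2 of 190 genes that share a promoter with a gene on the other strand, and 1 of 327 genes inside an intron. The level that chose them is a description and is not a result. The type is also only a label, since RefSeq lists 57 of the 97 as lncRNA, 6 as protein-coding, 2 as pseudogenes and 32 under no entry of the same symbol. The 6 listed as protein-coding are 1810058I24Rik, Tmem250-ps, Cct6a, Ifi30, Ptpmt1 and Tmem134.

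The livers came from 9 male B6D2F2 offspring on chow, 20 weeks old and fasted for 4 h, with 3 mice in each of 3 groups. In the NC-chow group (NC, mice 1, 5 and 6) conception was natural and no embryo was transferred. In the IVF-chow group (IVF, mice 2, 3 and 4) fresh 2-cell embryos from in vitro fertilization were placed in pseudopregnant ICR females. In the FET-chow group (FET, mice 2, 3 and 4) such embryos had been slowly frozen and thawed before the transfer. Sex and diet are as the paper gives them. The NC group therefore differed from the other groups in fertilization, in culture, in surgical transfer and in the strain of the mother that carried it. The egg donors of the IVF and FET groups were also superovulated. These factors cannot be told apart. The mice of the IVF and FET groups differed in freezing and thawing.

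lncRNAs are transcribed and mostly spliced and polyadenylated like mRNA but are not known to encode a protein. Some act in the nucleus as scaffolds, as Malat1 does in nuclear speckles and Neat1 in paraspeckles. Others are host genes, whose introns or exons are cut out to give small nucleolar RNAs (snoRNAs, guides for the modification of ribosomal RNA) or microRNAs, and others lie across or beside a protein-coding gene and share its promoter region. In liver, the best known of the host genes is that of miR-122, the dominant microRNA of hepatocytes.

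The depth was low and uneven. Estimated from the spacing of low FPKM values, which shows the worth of 1 fragment, it lay between 6530000 and 13140000 fragments in the NC mice, 3830000 and 8280000 in the IVF mice and 1990000 and 2890000 in the FET mice. For a transcript of 1 kb, 3 fragments correspond to an FPKM of 0.228 in the deepest library and 1.51 in the shallowest, so a value of 0 means less in the FET mice than in the NC mice. Entries at the ribosomal RNA locus took 3.49% and 5.03% of the summed FPKM in NC mice 5 and 6 and 26.5% in NC mouse 1. In the IVF and FET mice they took between 18.1% (IVF mouse 4) and 61.9% (IVF mouse 2). In the labels, the sample sheet numbers of NC mice 5 and 6 stand apart from those of the other 7 mice, which lie between 67 and 76. The 8 hepatocyte markers were above 0 in all 9 livers, with a summed FPKM from 4003 to 36640. The genes Pgk1 and Pgam1, which every cell uses for glycolysis, were listed at 0 in FET mouse 2, so a 0 is given here only as listed.

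Most of the lncRNAs were at low levels. Their mean FPKM had a median of 4.15, 40 had a mean of at least 5 and 22 of at least 10. A small number of genes held much of the total, since the 6 highest made up 42.6% of the summed mean FPKM. These 6 were Gm42418 (mean 117.2), Malat1 (106), BC024386 (101), C4a (59.2), Ndufb1-ps (47.7) and Gm26917 (44.6). They were followed by Gm10076 (37.9), Gm13775 (35.2), AC117816.1 (30.6), Gm30262 (28.6), Gm17066 (27.4) and Gm20319 (26.1). Several of these are not ordinary lncRNAs. Gm42418 lies on chromosome 17 opposite the ribosomal RNA entry CT010467.1, with 99.5% of its exon bases over it, and Gm26917 lies just beside that entry. Gm10076 is a copy of the mRNA of Rpl41, a protein of the large ribosomal subunit, over 99.7% of its length, so reads of either gene could be counted for the other. C4a is listed by RefSeq as a transcribed pseudogene of complement component 4. At the other end, the 3 genes just inside the threshold were Gm20634 (2.11), Rab26os (2.02) and 9630013D21Rik (2.0), and the 3 just outside were 2010001A14Rik (1.97), 4930404H11Rik (1.96) and Snhg1 (1.93).

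**Figure D1:**
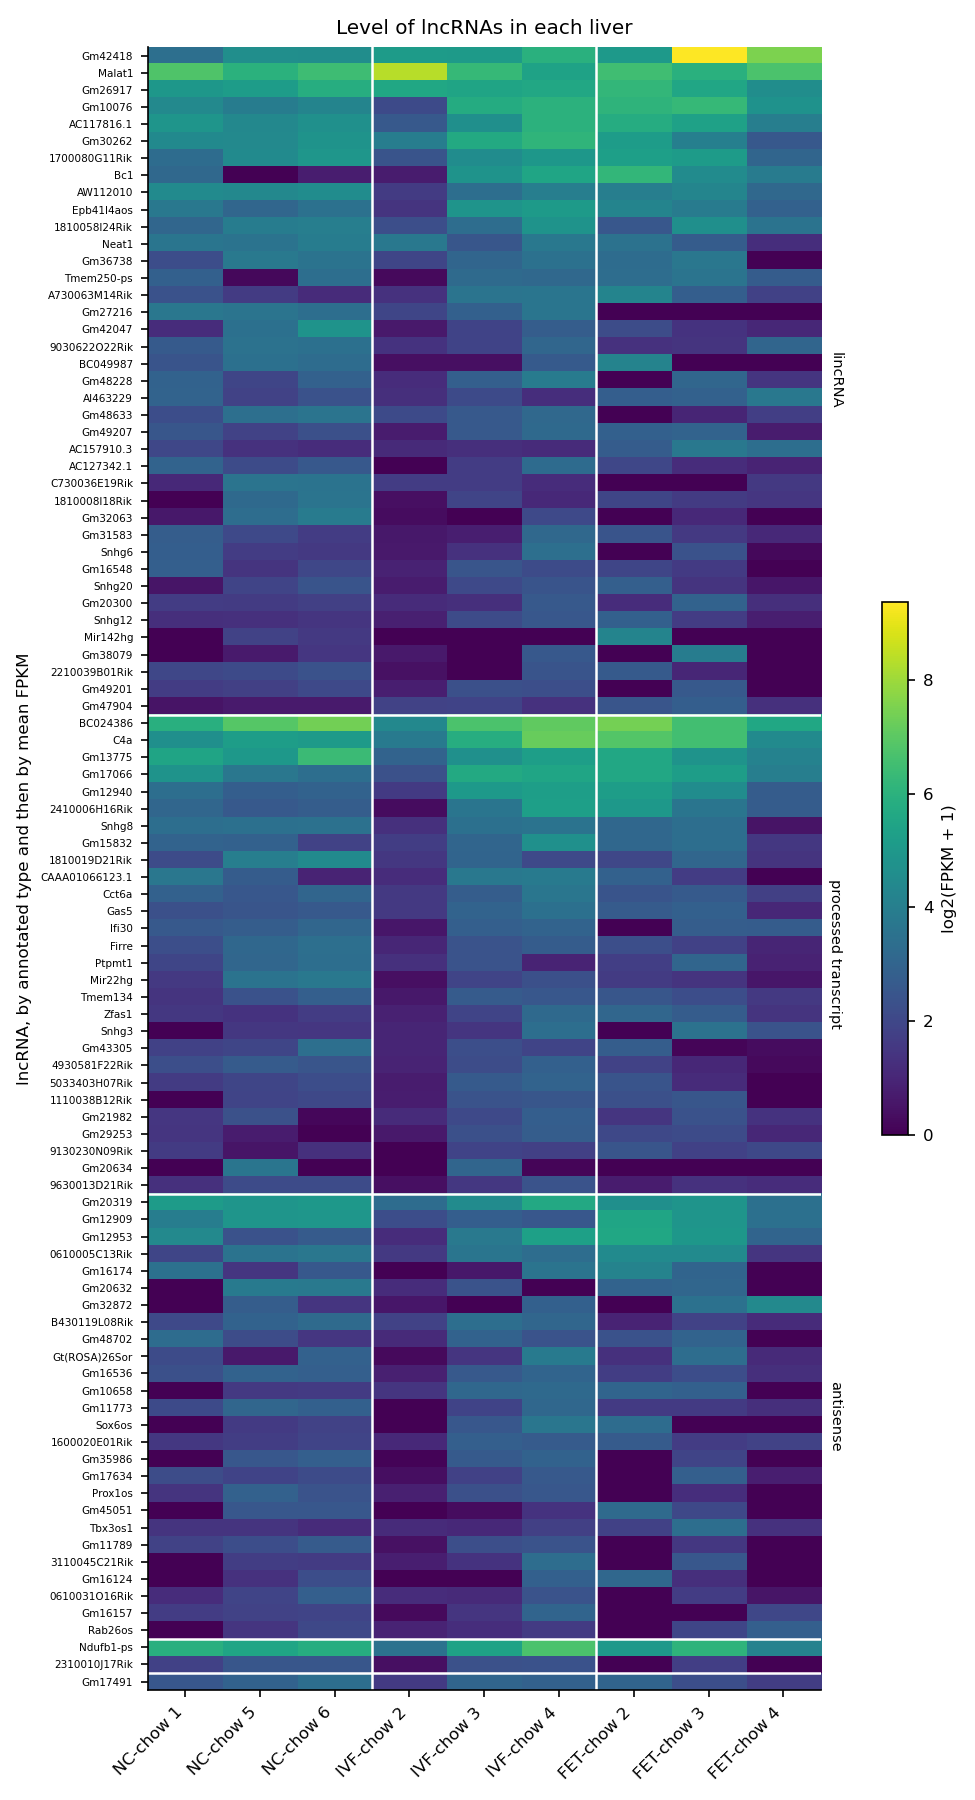
Level of each of the 97 lncRNAs other than 1 that is not reported (rows, by annotated type and then by mean FPKM) in each of the 9 livers (columns), as log2(FPKM + 1) on the colour scale. Levels fall off quickly within each type, IVF mouse 2 and FET mouse 4 are low over most genes, and Gm27216 is at 0 in all 3 FET mice.

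The lncRNAs varied widely between the libraries of a group. Of the 97, 55 were above 0 in all 9 livers and 42 were listed at 0 in at least 1. The number listed at 0 was 15, 1 and 1 in NC mice 1, 5 and 6, 9, 6 and 2 in IVF mice 2, 3 and 4, and 21, 7 and 25 in FET mice 2, 3 and 4. IVF mouse 2 held the lowest value of 34 lncRNAs and IVF mouse 4 the highest value of 33. Each library was then divided by its median ratio to the others, taken over the 5768 genes above 0 in all 9 mice. The counts of 34 and 33 became 11 and 2. The order of IVF mice 2 and 4 over the lncRNAs thus moved with a factor that the whole library shared. In 5 lncRNAs (Gm42418, Gm42047, Mir142hg, Gm38079 and Gm20634) 1 mouse alone held more than 50% of the summed value, and 22 lncRNAs had a median FPKM under 2 and passed the threshold through their higher mice. Counts over the 97 genes are therefore descriptions of a list that was chosen on these mice.

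Together the lncRNAs took 0.109% ± 0.024 (SD, n = 3) of the summed FPKM in the NC group, 0.128% ± 0.071 in the IVF group and 0.133% ± 0.061 in the FET group. The mice ranged from 0.066% in IVF mouse 2 to 0.205% in IVF mouse 4, so both ends lay in 1 group and all 3 groups overlapped. As a share of the nuclear genes other than ribosomal entries, the values were 0.277% ± 0.034, 0.433% ± 0.175 and 0.414% ± 0.149, and the groups overlapped here too. Single genes weighed on the sums. In FET mouse 3, Gm42418, which lies over a ribosomal entry, was 657 of the 1778 FPKM summed over the lncRNAs. In IVF mouse 2, Malat1 was 323 of 593.

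The 3 groups were then compared gene by gene with limma on log2(FPKM + 1) over the 6755 genes whose mean FPKM reached 1. All 97 lncRNAs were among them. Differences are given on that scale, which understates the change of genes at low levels. An adjusted p under 0.05 counted as changed. Of the 97, 44 had a mean FPKM under 2 in at least 1 group and entered through their other groups, Gm27216 among them, so their differences are in part set by the choice of members.

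Between FET and NC livers, 1 of the 97 lncRNAs changed, Gm27216, which fell. Of all genes tested, 0.237% were called. At an unadjusted p under 0.05, 4 lncRNAs were higher (4.12%) and 13 were lower (13.4%), while 1.88% of all genes were higher and 10.1% lower. The groups did not overlap for 6 lncRNAs on the higher side (6.19%, all genes 1.98%) and for 15 on the lower side (15.5%, all genes 17.1%). The median difference of the lncRNAs was -0.47, beside -0.46 for all genes, and 59 of the 97 were negative (60.8%, all genes 74.4%). These medians rest on the scale of the libraries. With median-ratio scaling both came to -0.14, a shift of 0.32 over all genes, and the numbers at an unadjusted p under 0.05 became 14 higher and 10 lower (14.4% and 10.3%, all genes 5.7% and 11.3%). The numbers without overlap became 15 higher and 10 lower, beside 7.98% and 13.6% of all genes, so the lower side no longer held more lncRNAs. Without FET mouse 4 the median of the lncRNAs was 0.05.

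In IVF against NC livers no lncRNA was called, and 0.0592% of all genes were. At an unadjusted p under 0.05 there were 2 higher and 4 lower lncRNAs (2.06% and 4.12%), beside 1.21% and 2.86% of all genes. The groups did not overlap for 2 higher and 2 lower lncRNAs, beside 0.77% and 5.46% of all genes. The median difference was -0.23, and -0.25 for all genes. Median-ratio scaling gave 7 higher and 5 lower at an unadjusted p under 0.05 (7.22% and 5.15%, all genes 2.35% and 3.38%) and a median of -0.01. It gave 11 higher and 8 lower without overlap, beside 7.25% and 8.72% of all genes. Without IVF mouse 2 the median was 0.26.

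Between FET and IVF livers no lncRNA was called on the FPKM as deposited, and 0.0888% of all genes were. At an unadjusted p under 0.05 there were 3 higher and 4 lower lncRNAs (3.09% and 4.12%), beside 1.07% and 2.95% of all genes. The groups did not overlap for 3 higher and 2 lower lncRNAs, beside 1.27% and 2.56% of all genes. The median difference was -0.13, and -0.20 for all genes. With median-ratio scaling there were 6 higher and 8 lower at an unadjusted p under 0.05 (6.19% and 8.25%, all genes 2.65% and 6.82%) and 7 higher and 6 lower without overlap, beside 4.47% and 8.75% of all genes, and the medians were 0.00 and -0.13. Both median-ratio scaling and a pseudocount of 0.1 brought 1 lncRNA past the threshold, which was Gm27216 again.

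**Figure D2:**
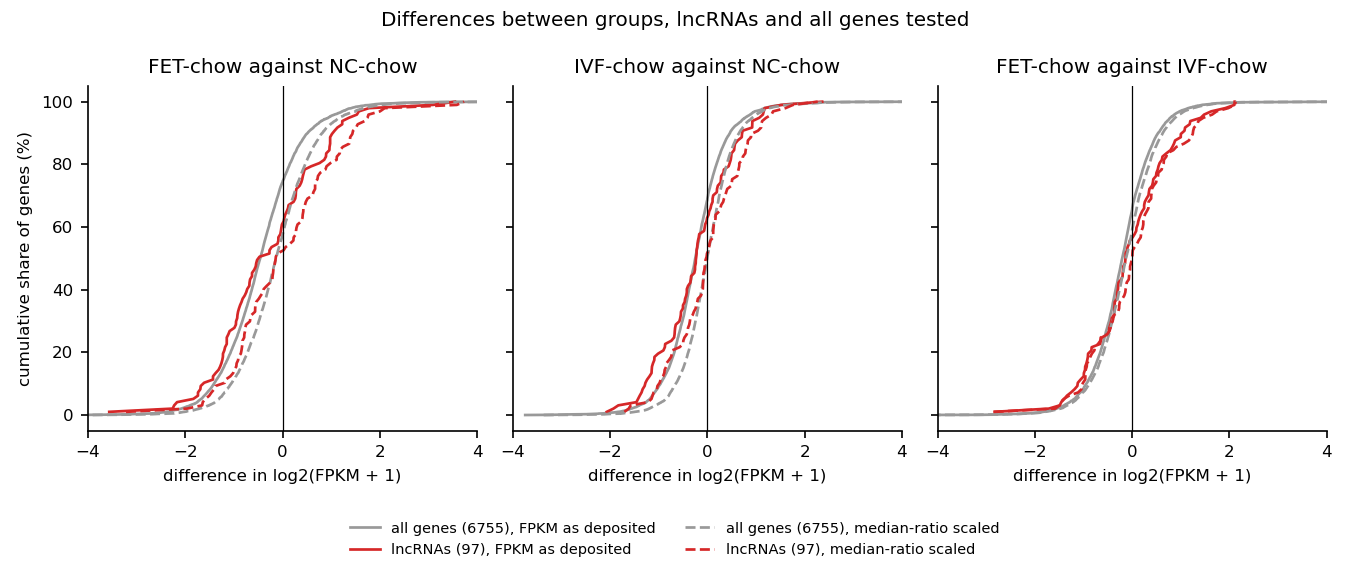
Cumulative share of genes (vertical axis, %) at or below each difference in log2(FPKM + 1) (horizontal axis) for the 97 lncRNAs (red) and all 6755 genes tested (grey), with the FPKM as deposited (solid) and after median-ratio scaling (dashed). In FET against NC livers the solid curves cross 50% close together, at -0.47 and -0.46, and the red curve is wider on both sides.

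Gm27216 was the lncRNA that stood out. It is an intergenic gene on the minus strand of chromosome 9, from 83240481 to 83254540 (GRCm38), whose longest transcript has 5 exons and 635 bases. Its exons overlap no other gene and no near-identical copy was found. Its FPKM was 12.1, 11 and 9.49 in NC mice 1, 5 and 6 and 2.90, 6.28 and 11.5 in IVF mice 2, 3 and 4, and it was listed at 0 in all 3 FET mice. The FET mice were thus below every other mouse, while the IVF and NC groups overlapped. The values correspond to an estimated 50.2, 82.1 and 79.2 fragments in the NC mice and 15.2, 17.7 and 27.9 in the IVF mice. In FET mice 2, 3 and 4, 3 fragments would give an FPKM of 2.37, 1.71 and 1.64, each below the lowest value of the other mice.

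The difference of Gm27216 in FET against NC livers was -3.56 ± 0.67 (SE) on the log2(FPKM + 1) scale, with an adjusted p of 0.00357. The gene entered the list through the NC and IVF groups (mean FPKM 10.9 and 6.89, beside 0 in FET). The difference of the FET mice from either group is therefore in part set by that choice. Its size depends on the pseudocount, since the FET mice are at 0, and no fold is given. The adjusted p ranged from 0.00067 to 0.725 over the alternatives, and 8 of 12 were past the threshold. With the difference still at -3.56, it was 0.135 without FET mouse 3, 0.0631 when only these groups were fitted and 0.434 with no filter on low values. It was 0.725 with NC mouse 1 as the sole NC mouse, where the difference was -3.71. Against the IVF mice, whose sheet numbers adjoin those of the FET mice, the difference was -2.82 ± 0.67 with an adjusted p of 0.0818. Over the alternatives this p ranged from 0.00691 to 0.791, and 4 of 12 were past the threshold. It was 0.00864 after median-ratio scaling, 0.0228 without IVF mouse 2, 0.519 with a replicate block, 0.595 when only these groups were fitted, 0.717 without IVF mouse 4 and 0.719 without FET mouse 3. In IVF against NC livers it was -0.74 ± 0.67 (adjusted p = 1). Listing at 0 in every FET mouse was not particular to this gene, as 114 of the 6755 genes tested (1.69%) shared it, and 38 of these were above 0 in all 6 other mice. Of the lncRNAs, Gm20634 was also at 0 in the FET mice, but it was above 1 in only NC mouse 5 (11.6) and IVF mouse 3 (7.28). The 5 protein-coding genes nearest to Gm27216, 93796 to 392794 bases away, were Hmgn3, Lca5, Phip, Sh3bgrl2 and Irak1bp1, and their mean FPKM lay between 0.015 and 0.415, too low to be tested.

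The RefSeq promoter of Gm27216, from 250 bases before to 50 after the start, is shown because this gene carried the difference that passed the test. It lies at chr9:83254460-83254759 on the minus strand of GRCm38.p6. The capitals mark matches to CCAAT on either strand. This box was found in at least 1 promoter of 42.6% of the 54 lncRNAs that matched the RefSeq table and of 41.1% of the 27025 genes in it. TATAAA and GGGCGG were searched too and were not found in this window.
Gm27216: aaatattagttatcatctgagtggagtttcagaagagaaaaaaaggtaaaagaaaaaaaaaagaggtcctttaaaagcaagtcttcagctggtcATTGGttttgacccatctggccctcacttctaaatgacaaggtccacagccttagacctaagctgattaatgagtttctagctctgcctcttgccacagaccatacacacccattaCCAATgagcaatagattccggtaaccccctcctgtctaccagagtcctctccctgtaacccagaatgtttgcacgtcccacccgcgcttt

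Besides Gm27216, 6 lncRNAs had all FET mice below all NC mice and an unadjusted p under 0.05. None passed the adjusted threshold. The FET mean of each was under 2, from 0.44 (Prox1os) to 1.59 (B430119L08Rik), so all 6 entered the list through the other groups. Their differences are in part set by that choice and are descriptions. Gm48633, a spliced lincRNA of chromosome 12, had an FPKM of 3.67, 9.60 and 11.2 in the NC mice, 3.29, 5.10 and 7.91 in the IVF mice and 0, 0.965 and 2.38 in the FET mice. The FET mice were below both other groups, by -2.17 ± 0.69 (adjusted p = 0.174) and -1.71 ± 0.69 (adjusted p = 1). After median-ratio scaling the groups overlapped. Prox1os runs antisense to Prox1, the gene of a transcription factor that sets hepatocyte identity in the embryo. Its FPKM was 1.66, 6.41 and 4.32 in the NC mice and 0.79, 3.84 and 4.86 in the IVF mice, and it was above 0 in only 1 FET mouse (mouse 3, 1.31), with a difference of -1.83 ± 0.63 against the NC group (adjusted p = 0.223). The remaining 4 were Gm11789 (-1.74), 2310010J17Rik (-1.69, head to head with the endocytic adaptor gene Picalm), B430119L08Rik (-1.43, antisense to the antitrypsin gene Serpina1c) and 4930581F22Rik (-1.43, antisense to the sialyltransferase gene St3gal4), with adjusted p from 0.253 to 0.409. At these levels 3 fragments in a FET library are an FPKM of 1.25 to 1.82 for a transcript of the length of Prox1os, so single values of 0 and about 1 were not distinguishable there.

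On the higher side, 4 lncRNAs with all FET mice above all NC mice are described, and none passed the adjusted threshold. AC157910.3 on chromosome 18 (65244287 to 65252621, plus strand), is the transcript that holds Mir122, the gene of miR-122. Its FPKM was 2.98, 1.51 and 1.3 in the NC mice, 1.162, 1.42 and 1.2 in the IVF mice and 5.62, 12.3 and 9.51 in the FET mice. The FET mice were above all 6 others, and the NC and IVF mice overlapped. The FET mean of 9.14 ± 3.35 (SD) stood against 1.93 ± 0.92 and 1.26 ± 0.14. The gene reached a mean of 2 only through the FET group, so its differences of 1.78 and 2.11 are a description and no p is given for them. The transcript is long (7350 bases), so even the shallow FET libraries held an estimated 82.2, 250 and 202 fragments of it. The level of mature miR-122 was not measured by this assay, and the entry Mir122 itself was at 0 in 6 of the 9 mice.

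Gm47904 and Gm42418 were higher too. Gm47904, a lincRNA of chromosome 13, had an FPKM of 0.42, 0.62 and 0.59 in the NC mice, 2.63, 2.68 and 1.51 in the IVF mice and 4.52, 5.96 and 1.48 in the FET mice. The IVF and FET groups were above the NC group without overlap, by 1.07 and 1.57. The gene reached a mean of 2 only through these groups, so this too is a description. Gm42418 had an FPKM of 9.71, 23.6 and 23.1 in the NC mice, 33.8, 33.5 and 60.2 in the IVF mice and 31.6, 657 and 183 in the FET mice, with a difference of 3.09 ± 1.08 in FET against NC livers (adjusted p = 0.242). Its reads share their place with the ribosomal RNA entry CT010467.1, which was at 40990, 4037 and 5535 in the NC mice, 90670, 23220 and 19690 in the IVF mice and 56000, 37910 and 44440 in the FET mice. The part of ribosomal RNA in the values of Gm42418 was not tested.

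Bc1 is a short RNA of 168 bases made by RNA polymerase III, known from neurons, where it acts on translation. In these livers its FPKM was 7.95, 0 and 0.70 in the NC mice, 0.62, 26.9 and 44.8 in the IVF mice and 71.6, 21.6 and 13.7 in the FET mice. All FET mice were above all NC mice, and the IVF mice spanned both. The difference was 3.55 ± 0.98 in FET against NC livers (adjusted p = 0.0853) and 2.36 ± 0.98 in IVF against NC livers (adjusted p = 0.887). With NC mouse 1 as the sole NC mouse the former was 1.69. The counts behind these values are small, at an estimated 23.9, 10.1 and 6.66 fragments in the FET mice and 8.72, 0 and 1.54 in the NC mice. The sequence, read from chr7:144914470-144914637 on the plus strand of GRCm38, is shown because the RNA is short and not unique in the genome. The capitals mark a stretch of 60 bases rich in A, and the part before it is related to the ID repeats, which occur in many places. A transcript of Lrrc17 holds a near-identical copy (at least 97% identity) of 54.2% of it.
Bc1: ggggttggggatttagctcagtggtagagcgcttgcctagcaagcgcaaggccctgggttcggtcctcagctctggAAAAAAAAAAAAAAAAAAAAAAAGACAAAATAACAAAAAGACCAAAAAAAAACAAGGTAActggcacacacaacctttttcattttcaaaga

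On the FPKM as deposited, Gm12909 was the lncRNA for which the IVF group did not overlap either of the others. After median-ratio scaling this held for Gm12909, Gm13775 and AW112010 (IVF lowest) and for Gm30262 (IVF highest). It lies on chromosome 4 (62088288 to 62090524, plus strand), 946 bases head to head with Mup3, one of the major urinary protein genes that the male liver expresses strongly. Its FPKM was 14.5, 28.2 and 29.5 in the NC mice, 3.6, 5.96 and 4.86 in the IVF mice and 44.8, 28.7 and 9.93 in the FET mice. The differences were -2.07 ± 0.89 in IVF against NC livers (adjusted p = 0.966) and 2.10 ± 0.89 in FET against IVF livers (adjusted p = 1). Mup3 did not follow this order. Its FPKM was 879.6, 2745 and 3054 in the NC mice, 387.8, 1227 and 1402 in the IVF mice and 741.7, 1172 and 493.1 in the FET mice. AI463229 was likewise higher in every FET mouse (5.98, 6.53 and 12.5) than in every IVF mouse (1.43, 3.29 and 1.32), with a difference of 1.63 ± 0.70 (adjusted p = 1), while the NC mice (6.79, 2.64 and 4.16) overlapped both.

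**Figure D3:**
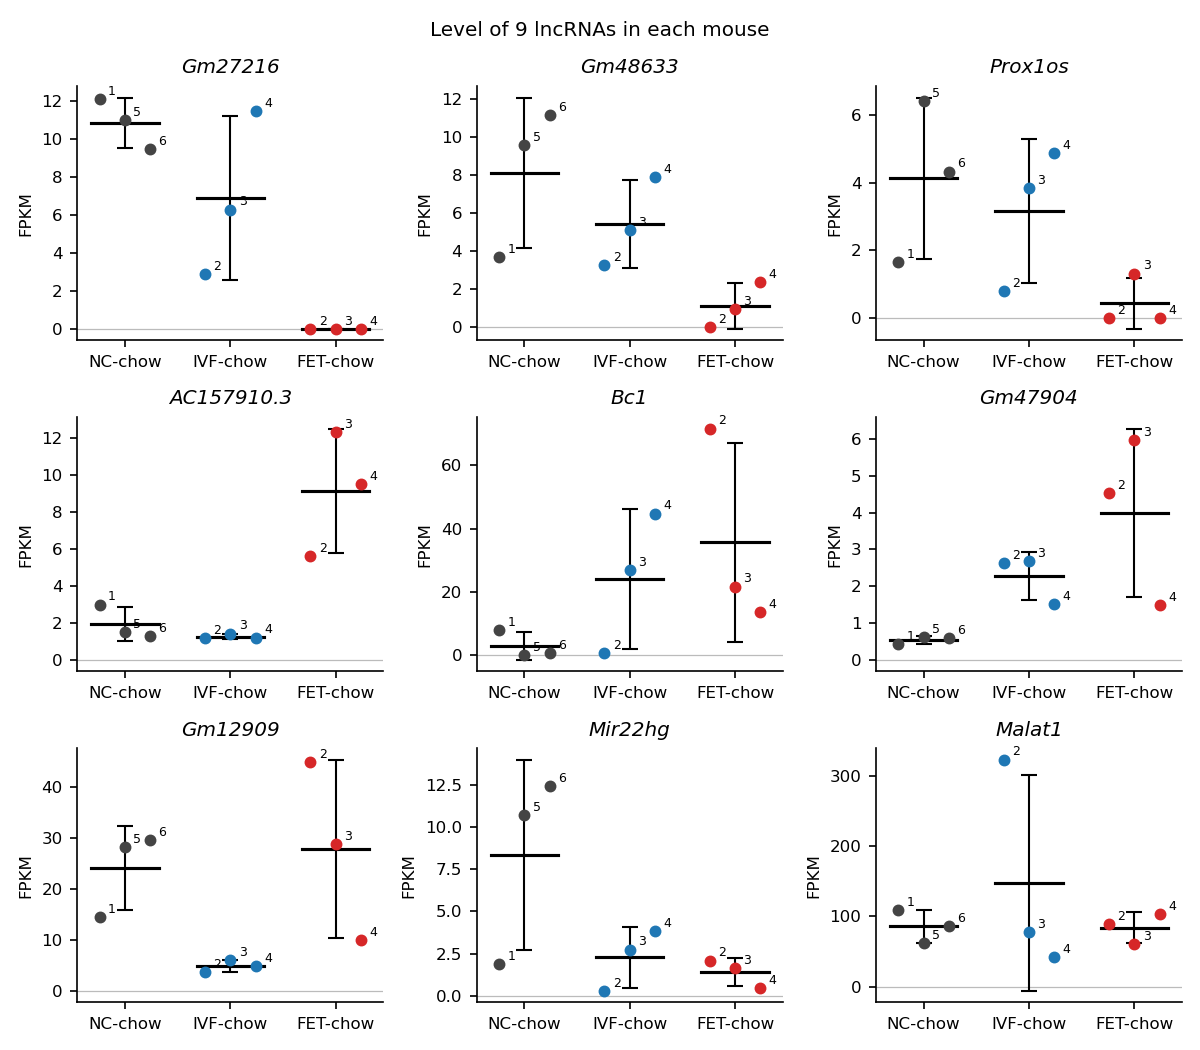
FPKM (vertical axis, linear) of 9 lncRNAs in each mouse (points, labelled with the mouse number) by group (horizontal axis), with the mean (thick line) and the SD (bars). The FET points of Gm27216 all lie at 0, those of AC157910.3 lie between 5.62 and 12.3 above every other mouse, and the IVF points of Gm12909 lie between 3.6 and 5.96 below every other mouse.

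Of 20 nuclear lncRNAs listed by hand, 3 were among the 97, namely Malat1, Neat1 and Firre. None was called in any of the 3 comparisons. Malat1 had an FPKM of 109, 61.5 and 86.5 in the NC mice, 323, 77.1 and 41.5 in the IVF mice and 88.8, 60.0 and 103 in the FET mice. The NC and FET groups covered nearly the same range, with a difference of -0.02 ± 1.08, and the highest value belonged to IVF mouse 2. Neat1, the scaffold of paraspeckles and at 20771 bases the longest transcript of the 97, had an FPKM of 11.6, 10.9 and 14.4 in the NC mice, 12.4, 4.61 and 12.5 in the IVF mice and 10.5, 5.67 and 1.35 in the FET mice. The FET values were all below the NC values, by -1.23 ± 0.82 (adjusted p = 0.569), and after median-ratio scaling they overlapped. Firre, an X-linked lncRNA that organises nuclear domains, stood at -1.24 in the same comparison and was highest in NC mice 5 and 6 (7.68 and 9.62). After median-ratio scaling its values in both other groups lay below all NC mice (-0.86 in FET and -0.57 in IVF against NC livers).

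Of 24 proteins of speckles and paraspeckles, 19 were tested and none was called. In FET against NC livers their median difference was -0.75, beside -0.46 for all genes, and 16 were negative (all genes 74.4%). After median-ratio scaling the medians were -0.42 and -0.14. The largest differences were those of the splicing factors Srsf2 (-2.66, adjusted p = 0.116), Srsf11 (-2.04), Srsf5 (-1.64) and U2af2 (-1.31). Srsf2 had an FPKM of 8.70, 17.8 and 22.1 in the NC mice and of 0, 4.62 and 1.95 in the FET mice, and these groups did not overlap.

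The snoRNA host genes were the largest functional group. By the annotation, 13 of the 97 lncRNAs hold 31 snoRNA genes on their own strand, and Gas5 alone holds 9. Among these 9 is Mir5117, an entry with a microRNA symbol that was counted by its annotated type. Cct6a, among the 13, is listed by RefSeq as protein-coding. None of the 13 was called in any comparison, and none reached an unadjusted p under 0.05. Their median difference was 0.23 in FET and 0.27 in IVF against NC livers, while the median of all genes was -0.46 and -0.25, and 8 and 10 of the 13 were positive. Both comparisons use the same NC mice. After median-ratio scaling the medians were 0.43 and 0.50, beside -0.14 and -0.002 for all genes. In FET against IVF livers the unscaled median of the hosts was -0.13, beside -0.20 for all genes, and 4 of the 13 were positive. On the FPKM as deposited no host lay above the NC mice in all mice of another group. After scaling, Zfas1 and 2410006H16Rik did so in the FET mice, and Gas5, Zfas1, Snhg3 and Snhg12 in the IVF mice, that is 2 and 4 of 13, beside 7.98% and 7.25% of all genes. The hosts are too few to read a difference from these shares.

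Gas5, whose spliced RNA is known to bind the glucocorticoid receptor, had an FPKM of 3.92, 4.54 and 5.19 in the NC mice, 1.91, 6.92 and 10.1 in the IVF mice and 5.48, 6.29 and 1.04 in the FET mice. The NC mice lay close together and inside the range of both other groups. Epb41l4aos (12.6, 7.51 and 10.4 in the NC mice) was the host with the highest mean, at 14.6. The largest positive differences in FET against NC livers were those of 2410006H16Rik, Snhg3 and Zfas1 (0.98, 0.98 and 0.89). Zfas1 had an FPKM of 1.84, 1.57 and 2.19 in the NC mice and of 7.61, 5.6 and 1.63 in the FET mice. The most negative were Snhg6 and Snhg8 (-1.15 and -1.11), and Snhg8 had an FPKM of 9.49, 9.93 and 10.2 in the NC mice and of 7.64, 9.44 and 0.41 in the FET mice, so that FET mouse 4 alone held most of the difference. Cct6a, Gm15832, Snhg20, 1110038B12Rik, Snhg12 and Rab26os lay between -0.55 and 0.45.

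**Figure D4:**
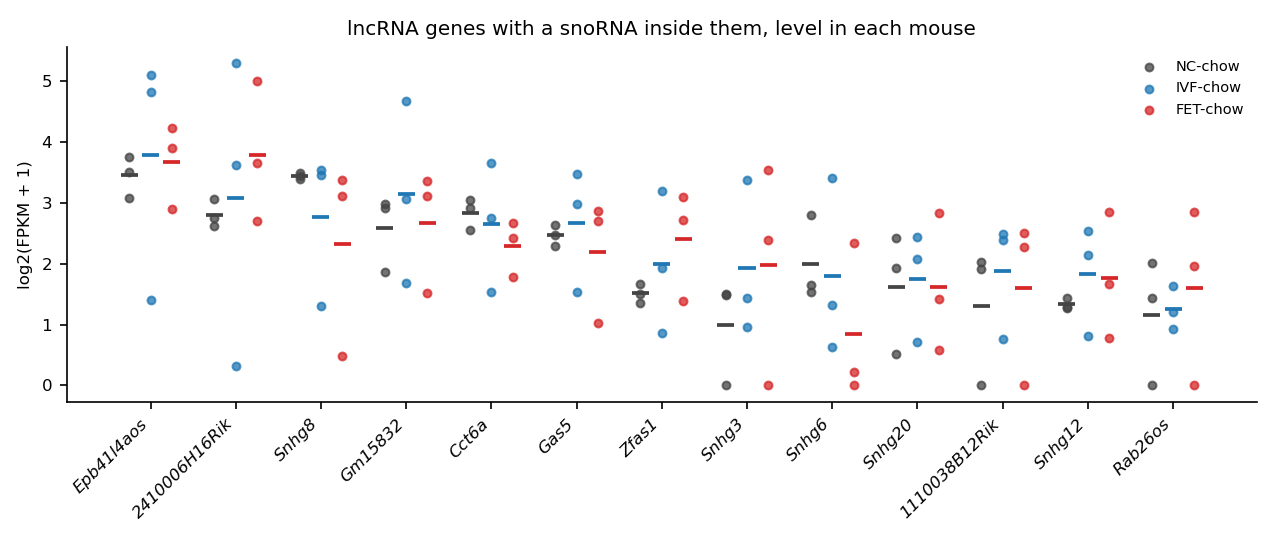
Level of the 13 lncRNA genes with a snoRNA inside them (horizontal axis, by mean FPKM) as log2(FPKM + 1) (vertical axis) in each mouse (points) with the mean of each group (lines). The IVF points of most hosts spread to both sides of the NC points. The FET points do so only for Epb41l4aos, Gm15832, Gas5 and Snhg12. The groups overlap for all hosts shown other than Snhg8 in FET against NC livers.

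Host genes of snoRNAs often begin in a run of pyrimidines (the 5′ TOP motif), as the mRNAs of ribosomal proteins do. The first bases around the start are shown for the hosts in which CTTTC or CTTCC lay within 10 bases of it on the gene's own strand, and the capitals mark the match. This held for 4 of the 10 hosts that matched the RefSeq table (40%), for 13% of the 54 matched lncRNAs and for 8.17% of all 27025 genes. GGGCGG, searched on both strands, was in a promoter of 70% of these hosts, 38.9% of the lncRNAs and 38.2% of all genes, and TATAAA in 40%, 20.4% and 15.7%. A match is a description of the letters only.
Gas5: ccatctcagcCTTTCggagct
Snhg12: ttctcagtcCTTTCtcgcttc
2410006H16Rik: cgccgtCTTTCtctgcggcca
Snhg3: gaccacgcctgaCTTCCgggc

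The proteins that work with these RNAs were not called either. Of 16 snoRNP proteins (the partners of snoRNAs) 7 were tested, with a median difference of -0.43 in FET against NC livers and the largest differences for Nop10 (-0.94), Nolc1 (-0.69), Nhp2 (-0.63) and Snu13 (-0.43). Of 18 proteins of nonsense-mediated decay, the pathway that removes many spliced host RNAs, 11 were tested, with a median of -0.37. Smg5 was the sole positive one (0.999), and Casc3, Smg1 and Upf1 were at -0.81, -0.68 and -0.66. All genes had a median of -0.46.

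The annotation shows a microRNA gene inside 6 of the 97 lncRNAs on the same strand, which are AC157910.3, Mir22hg, Mir142hg, Snhg20, Gm48228 and Gm20632. Gas5 is not among them, as Mir5117 inside it was counted with the snoRNAs. Mir22hg (chromosome 11, 75461539 to 75466676, plus strand) gives miR-22, a microRNA that is abundant in liver. Its FPKM was 1.91, 10.7 and 12.4 in the NC mice, 0.30, 2.74 and 3.85 in the IVF mice and 2.09, 1.68 and 0.49 in the FET mice. NC mice 5 and 6 stood above all others, and NC mouse 1 was inside the range of the other groups. The differences were -1.74 ± 0.68 in FET and -1.42 ± 0.68 in IVF against NC livers (adjusted p = 0.292 and 1). The mean that placed Mir22hg in the list rested mainly on the NC group (8.35, beside 2.30 in IVF and 1.42 in FET). These differences are therefore a description. Tlcd2, whose exons it shares on the same strand, was at 2.81, 11.9 and 7.45 in the NC mice and 0, 2.74 and 0.93 in the FET mice, with a difference of -1.95 (adjusted p = 0.242). The mature sequences of miR-22 from RefSeq are shown with the seed (bases 2 to 8) in capitals, as the product this host would give. Their levels were not measured here.
miR-22-5p: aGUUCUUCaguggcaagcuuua
miR-22-3p: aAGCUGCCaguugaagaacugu

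Mir142hg, the host of the blood cell microRNA miR-142, was at 17.8 in FET mouse 2, at 2.60 and 1.96 in NC mice 5 and 6 and listed at 0 in the other 6 mice. The counts behind these values are small, at an estimated 9.54 fragments in FET mouse 2 and 8.21 and 6.93 in NC mice 5 and 6. In FET mice 3 and 4, 3 fragments would give an FPKM of 4.026 and 3.859, above the values of NC mice 5 and 6. A level like that of these NC mice could therefore not be told from 0 there. The summed FPKM of 7 Kupffer cell and macrophage markers was also highest in FET mouse 2 (78.8) and lay between 4.31 and 32.7 in the others, and that of 4 T and B cell markers lay between 0 and 1.14 in all 9. In a whole tissue, more cells of a type and more RNA per cell cannot be told apart. AW112010, a lncRNA known from immune cells, had its lowest values in other mice. It was at 21.6, 19.6 and 22.7 in the NC mice, 2.12, 9.54 and 15.2 in the IVF mice and 14.9, 18.1 and 8.04 in the FET mice, so both groups lay below the NC group without overlap, by -1.46 (IVF, adjusted p = 1) and -0.67 (FET, adjusted p = 0.808), and the FET mice overlapped the NC mice after median-ratio scaling.

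Of 32 lncRNAs tied to liver or metabolism in a hand-written list, 6 were among the 97. None was called. In FET against NC livers 5 were negative, with a median of -0.78 (-0.33 after median-ratio scaling), where 74.4% of all genes were negative. In IVF against NC livers all 6 were negative, with a median of -1.13 (all genes 68.9% negative), and after scaling 5 were, with a median of -0.78, and in FET against IVF livers 4 were positive, with a median of 0.42. These comparisons share their mice. C730036E19Rik had the most negative difference of the 6 (-2.23), which rested on NC mice 5 and 6 (11.1 and 10.8), as NC mouse 1 was at 1.14 and the other mice were between 0 and 2.18. It reached a mean of 2 only through the NC group, so this difference is a description. 0610031O16Rik, 1810008I18Rik and Gm13775 were at -1.26, -0.58 and -0.75, and 0610005C13Rik, which overlaps the branched-chain aminotransferase gene Bcat2, was at 0.38.

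NC mice 5 and 6 were both above the other 7 mice in 12 of the 97 lncRNAs (12.4%) and in 16.5% of all genes tested, and both below them in none of the lncRNAs and in 1.07% of all genes. The 12 were 1810019D21Rik, Gm42047, 9030622O22Rik, Gm20632, Gm48633, Firre, Ptpmt1, Mir22hg, C730036E19Rik, 1810008I18Rik, Gm32063 and 2310010J17Rik. After median-ratio scaling they were both above in 9.28% of the lncRNAs and 10.4% of all genes, and both below in 8.25% and 6.48%. The differences of these genes against the NC group move with the sheet number, and its part in them was not tested.

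Many of the lncRNAs share their place with another gene. Exons of 47 overlap an exon of another gene and those of 50 overlap none. A protein-coding gene was overlapped by 39, of which 31 lie on the opposite strand and 8 on the same strand, and 11 start head to head within 1000 bases of a protein-coding gene. Whether the counting used the strand is not given in the sources used here, so for the 31 opposite pairs reads of the lncRNA and of its partner cannot be told apart in the shared exons. The partner was at a higher mean FPKM than the lncRNA in 7 of these 31 pairs. The most unequal were Serpina1c at 1035 beside B430119L08Rik at 4.74 and Ttc36 at 419 beside Gm48702 at 4.16, where 21.5% and 54.6% of the exon bases of the lncRNA are shared. In the other direction, Ndufb1-ps was at 47.7 and its partner Cpsf2, a cleavage and polyadenylation factor, at 0.44.

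The direction of the pairs was mixed. Of the 31 opposite partners 13 were at a level that could be tested. In FET against NC livers, 7 of these 13 pairs were negative in both genes, 2 were positive in both and 4 differed in sign. Across these pairs, which share the same libraries, the Pearson r was 0.43 and the Spearman rho 0.28. The same values were -0.22 and -0.21 in IVF against NC livers, and 0.32 and 0.26 in FET against IVF livers. Prox1 was at 1.52, 6.07 and 5.04 in the NC mice and 1.37, 0.81 and 0.36 in the FET mice, a difference of -1.40 (adjusted p = 0.341) beside the -1.83 of Prox1os. Serpina1c was at -0.25 beside the -1.43 of B430119L08Rik, and St3gal4 at 0.21 beside the -1.43 of 4930581F22Rik. Picalm was at -0.28, head to head with 2310010J17Rik (-1.69). The difference between a lncRNA and its partner was not tested. None of the partners named here passed the adjusted threshold.

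**Figure D5:**
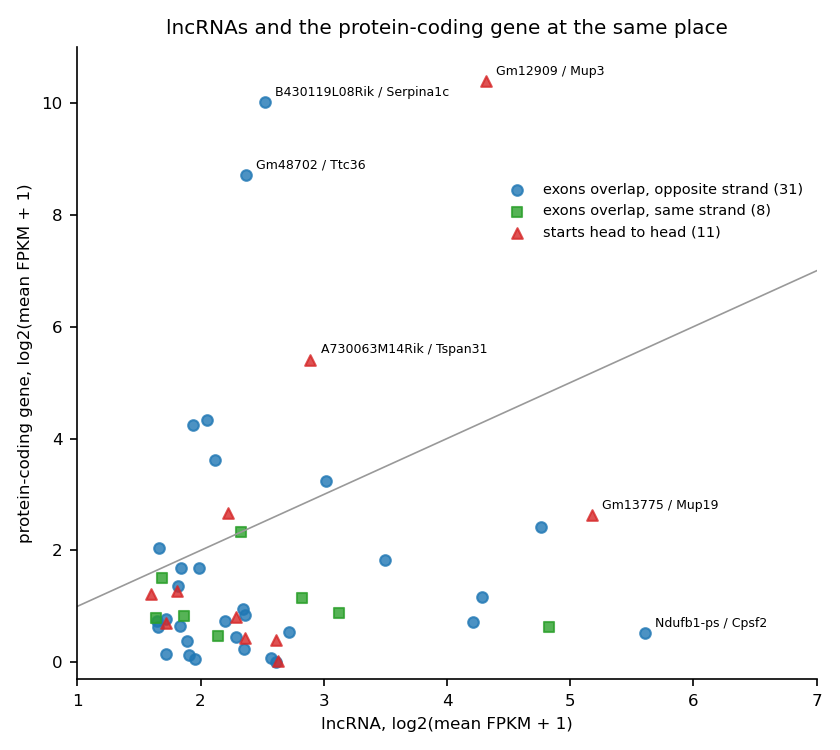
Mean level of the protein-coding gene at the same place (vertical axis, log2(mean FPKM + 1)) against that of the lncRNA (horizontal axis, same scale), for 31 pairs with exons overlapping on opposite strands (circles), 8 on the same strand (squares) and 11 with starts head to head (triangles). The line marks equal levels, most points lie below it, and Mup3, Serpina1c and Ttc36 lie far above it.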

How the data were processed

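Liver RNA of 9 mice was analysed in 3 groups of 3 taken from the labels. The authors deposited FPKM values for 55335 genes by Ensembl identifier. The submitters' processing notes name FastQC 0.11.5, STAR 2.5.3a, StringTie 1.3.1c and DESeq2 1.16.1, and the build, annotation and strandedness are not given in the sources used here. GENCODE vM21 (GRCm38) matched 55154 identifiers and gave types and positions. The members and the gene lists were chosen with earlier results of these data known.

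Depth was estimated from steps of up to 8 fragments in low FPKM (tolerance 2%), and covers counting error only. The 6755 genes whose mean FPKM reached 1 were tested on log2(FPKM + 1) with limma 3.58.1 (R 4.3.3), with 3 groups in 1 model, a variance trend on the mean, two-sided tests and Benjamini-Hochberg adjustment over all genes. The procedures were tested on simulated data. Near-identical copies were searched with blastn 2.17.0 (at least 97% identity). Promoters and microRNAs are those of RefSeq (GRCm38.p6). The genes named are the 12 with the highest mean, those past the threshold, up to 8 per direction and comparison at an unadjusted p under 0.05 without overlap, listed hosts and nuclear and liver lncRNAs, those at the threshold, 4 per protein list, and partners of named lncRNAs. AW112010, Gm48702, Ndufb1-ps's partner and the genes listed for NC mice 5 and 6 or for 1 high mouse were chosen after seeing their values. The alternatives were another pseudocount, no filter, other scalings, other fits, other ways to choose the members and leaving out each mouse. A fit with NC mouse 1 as the sole NC mouse was added after the data had been seen. The values of 1 lncRNA and of the gene it overlaps are not reported here, though both are in the counts.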

Additional observations from a re-analysis of the deposited data

How the results depend on the processing

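No lncRNA other than Gm27216 was called under any alternative, except in 2 fits that each left out 1 mouse. In FET against NC livers the number called was 1, and it was 0 with no filter on low values, 0 when only these groups were fitted and 0 with NC mouse 1 as the sole NC mouse, an alternative chosen after seeing the data. With a mouse left out it ranged from 0 (without FET mouse 3) to 3 (without NC mouse 1, where C730036E19Rik and Gm32063 joined, which reached a mean FPKM of 2 only through the NC group, so that the choice of members set their direction), and was 2 without FET mouse 2, where BC049987 joined, whose highest value was in the mouse left out (17.2, and 0 in the other FET mice), so that leaving it out set the outcome. In FET against IVF livers the number was 0, and it was 1 with a pseudocount of 0.1, with median-ratio scaling and with rescaling to protein-coding genes, and 0 to 1 with a mouse left out (1 without IVF mouse 2). In IVF against NC livers it was 0 throughout. The share of summed FPKM was 0.277% (NC), 0.433% (IVF) and 0.414% (FET) when taken of nuclear non-ribosomal FPKM, and with only the lncRNAs free of exon overlap it was 0.0603% in the NC, 0.0666% in the IVF and 0.0633% in the FET group. The median differences moved by less than 0.773, the SD between mice within groups of the median level of the lncRNAs, under every alternative, but they changed sign: with a mouse left out they ranged from -0.68 to 0.05 in FET and from -0.68 to 0.26 in IVF against NC livers, and from -0.68 to 0.33 in FET against IVF livers, where 0.18 came with rescaling to protein-coding genes and 0.10 with a mean FPKM of at least 5, and the added alternative gave 0.02 in IVF against NC livers. The cause was not tested.

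Whether the mouse numbers shared by the IVF and FET groups pair the mice is not known. Same-numbered mice had a mean correlation of -0.122 in their deviations and other pairs 0.0607, on FPKM that were not scaled between libraries. So few pairs can neither show nor exclude a pairing. With a replicate block the number called in FET against IVF livers was 0 and the median was -0.13. Depth limits the low values: for a transcript of 1 kb, 3 fragments are an FPKM of 1.04 to 1.51 in the FET mice.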
